A study of Mus musculus with 8 samples.

Results

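The interaction between genotype and sorted population was measured over the 24976 named genes of the count table in CD8 T cells from B16-OVA tumours, with all 8 of 8 libraries. For each gene the log2 difference between PD1+Tim3+ and PD1+Tim3- cells in WT libraries was subtracted from the same difference in libraries labelled dKO. A positive value therefore means that the gene read relatively higher in PD1+Tim3+ cells of the dKO label than the WT libraries give, and a negative value the reverse. It equals the dKO minus WT difference in PD1+Tim3+ cells minus that in PD1+Tim3- cells. A low-count filter left 13073 genes, and p-values were adjusted over these.

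B16-OVA is a mouse melanoma line that carries the antigen ovalbumin. It was grown for 10 days in Rag2-/- mice, hosts without T or B cells of their own, before CD8+ T cells were transferred. The cells were taken from the tumours 10 days after transfer and sorted as CD3e+CD8+PD1+Tim3- or CD3e+CD8+PD1+Tim3+. Donors were WT, or carried Cd8Cre, flox/flox alleles of NR4a1 and NR4a2 and the OT-ITg/+ transgene, a T cell receptor specific for ovalbumin. Carriage of OT-I by WT donors is unstated in the labels, so receptor specificity and genotype cannot be told apart. Each of the 4 groups had 2 libraries, and the labels' protocol describes the cells of each implanted mouse as a sample without saying which libraries came from the same mouse. The labels give neither strain nor age. Total counts ran from 1944999 to 13418762 per library. Both libraries of each group differed by more than sampling noise, at a mean chi-square of 3.10 to 16.1 over genes. CPM values below are counts per 1000000 on TMM-scaled library sizes, always replicate 1 and then replicate 2.

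NR4A proteins are orphan nuclear receptors induced by T cell receptor signals, and they bind DNA as monomers at the NBRE site. In tumours they are known for sustaining the exhausted state. Exhausted CD8 T cells pass from a stem-like pool that holds the factor TCF1, encoded by Tcf7, to a terminally differentiated pool that displays Tim3, encoded by Havcr2. The interaction asks whether that passage reads differently in the 2 genotypes.

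The sort was visible in the RNA. Havcr2 stood at 3.55 and 2.28 CPM in WT PD1+Tim3-, 41.8 and 43.6 in WT PD1+Tim3+, 3.62 and 3.15 in dKO PD1+Tim3- and 56.6 and 58.2 in dKO PD1+Tim3+. It was higher in PD1+Tim3+ cells by 3.82 ± 0.18 (SE) on the log2 scale in WT (adjusted p = 2.69e-06, edgeR) and by 4.03 ± 0.19 in dKO (adjusted p = 2.16e-06), and its interaction was 0.22 ± 0.33 (adjusted p = 0.891, edgeR). Tcf7 stood at 342 and 372 CPM in WT PD1+Tim3-, 206 and 203 in WT PD1+Tim3+, 329 and 308 in dKO PD1+Tim3- and 171 and 176 in dKO PD1+Tim3+, lower in PD1+Tim3+ cells of both genotypes, with an interaction of -0.071 ± 0.16. Pdcd1, the gene of PD1 on which all cells were gated, ranged from 44.98 to 67.3 CPM, both ends being WT PD1+Tim3- libraries. The CD8 T cell label was met by Cd8a, at 854 and 899.7 CPM in WT PD1+Tim3- and 1206 and 1062 in dKO PD1+Tim3+, while Cd4 did not pass the low-count filter.

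Of the targeted genes, Nr4a1 went against the dKO label in level, as whole-gene counts. Nr4a1 stood at 979 and 824 CPM in WT PD1+Tim3-, 803 and 789 in WT PD1+Tim3+, 1331 and 1488 in dKO PD1+Tim3- and 1194 and 1175 in dKO PD1+Tim3+, so every dKO library was above every WT library of its population. Nr4a2 stood at 990.1 and 958 CPM in WT PD1+Tim3-, 1034 and 979 in WT PD1+Tim3+, 937 and 929 in dKO PD1+Tim3- and 954 and 984 in dKO PD1+Tim3+. Its dKO libraries were slightly below WT in PD1+Tim3- cells, and the genotypes overlapped in PD1+Tim3+ cells. Nr4a3, which the labels do not list as floxed, stood at 333 and 348 CPM in WT PD1+Tim3-, 358 and 377 in WT PD1+Tim3+, 394 and 377 in dKO PD1+Tim3- and 383 and 403 in dKO PD1+Tim3+. Interactions were -0.071 ± 0.18, 0.0065 ± 0.16 and -0.084 ± 0.16 for Nr4a1, Nr4a2 and Nr4a3. Counts over whole genes do not show the floxed part alone. All directions below are those of libraries labelled dKO, called dKO for short. Tox, a factor of the exhausted state, had an interaction of -0.16 ± 0.21 and was lower in PD1+Tim3+ cells in both genotypes.

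No gene passed the test of the interaction. With edgeR's quasi-likelihood test, 0 of 13073 genes (0%) had an adjusted p under 0.05, and the lowest adjusted p was 0.200. An unadjusted p under 0.05 was reached by 1320 genes (10.1%), of which 768 (5.87%) were positive and 552 (4.22%) negative. DESeq2 called 95 genes (0.727%), 91 of them positive, and gave 3549 genes no adjusted p. Of those 95, 88 had an annotated transcript length, and for 63 of these it was under 1000 bases. Without replicate 1 of dKO PD1+Tim3+, edgeR called 323 genes, 303 positive and 20 negative, in a fit where the lone library of that group is assumed to vary like the others. With the correction for length described below, that count was 193. Averaged over genotypes, the population difference called 1592 genes higher (12.2%) and 1386 lower (10.6%) in PD1+Tim3+ cells, and averaged over populations the genotype difference called 113 genes (0.864%). The genes described next are therefore an ordering by p, not a set that passed.

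**Figure D1:**
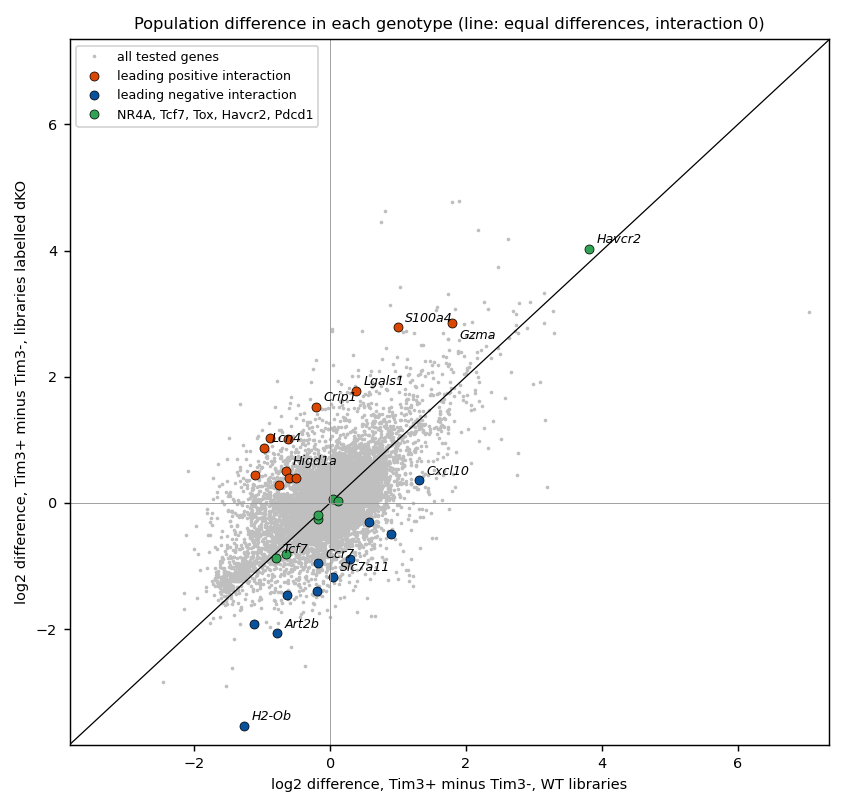
Each grey point is 1 of 13073 tested genes, with the log2 difference between PD1+Tim3+ and PD1+Tim3- cells in WT libraries on the x axis and in libraries labelled dKO on the y axis. The line marks equal differences. Orange points are the 12 genes with the lowest p and a positive interaction, blue points 11 of the 12 with a negative one, and green points Havcr2, Tcf7, Tox, Pdcd1 and the NR4A genes, which lie near the line.

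Across genes the population difference in the 2 genotypes correlated at Pearson r 0.622 and Spearman rho 0.514 over 13073 genes, which are not independent replicates. The differences had like spreads, with SDs of 0.561 in WT and 0.564 in dKO. All libraries share 1 scaling and the level of each gene, and within a genotype both differences use only that genotype's 4 libraries.

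Among positive interactions, Lgals1, which encodes galectin-1, a secreted lectin that dampens T cell responses, had the lowest p of all genes. It stood at 233 and 204 CPM in WT PD1+Tim3-, 296 and 275 in WT PD1+Tim3+, 182 and 159 in dKO PD1+Tim3- and 516 and 654 in dKO PD1+Tim3+. Both dKO PD1+Tim3+ libraries were above all others, while the dKO PD1+Tim3- libraries were the lowest. Its interaction was 1.39 ± 0.20 (SE, adjusted p = 0.200, edgeR), built from a population difference of 0.38 in WT and 1.78 in dKO. Within PD1+Tim3+ cells Lgals1 was higher in dKO by 1.04 ± 0.14 (adjusted p = 0.0106, edgeR).

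S100a4, a calcium-binding protein of motile cells, followed the same order. Its levels were 109 and 83.3 CPM in WT PD1+Tim3-, 205 and 180.1 in WT PD1+Tim3+, 80.4 and 65.1 in dKO PD1+Tim3- and 392 and 626 in dKO PD1+Tim3+. The 2 dKO PD1+Tim3+ libraries differed from each other yet both exceeded the remaining 6 libraries, and the interaction was 1.79 ± 0.30 (adjusted p = 0.200, edgeR). Crip1, a small LIM-domain protein, stood at 118 and 99.3 CPM in WT PD1+Tim3-, 91.8 and 96.1 in WT PD1+Tim3+, 86.9 and 58.3 in dKO PD1+Tim3- and 158 and 271 in dKO PD1+Tim3+. Its population difference was -0.21 in WT and 1.53 in dKO. Gzma, which encodes the cytotoxic protease granzyme A, stood at 37.1 and 31.7 CPM in WT PD1+Tim3-, 118 and 121 in WT PD1+Tim3+, 24.6 and 26.8 in dKO PD1+Tim3- and 196 and 170.3 in dKO PD1+Tim3+. Gzma rose with Tim3 in both genotypes, by 1.79 ± 0.12 in WT (adjusted p = 1.80e-05, edgeR) and 2.85 ± 0.14 in dKO (adjusted p = 2.16e-06, edgeR), and its interaction was 1.06 ± 0.18 (adjusted p = 0.200).

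In the other 8 leading positive genes the population difference was negative in WT and positive in dKO. Higd1a, a mitochondrial protein of the hypoxia-induced family, stood at 81.9 and 71.1 CPM in WT PD1+Tim3-, 49.99 and 47.6 in WT PD1+Tim3+, 53.9 and 45.7 in dKO PD1+Tim3- and 63.7 and 80.5 in dKO PD1+Tim3+. Both PD1+Tim3+ libraries were below PD1+Tim3- in WT and above it in dKO. Mrpl33, a protein of the mitochondrial ribosome, stood at 54.3 and 45.2 CPM in WT PD1+Tim3-, 29.1 and 25.5 in WT PD1+Tim3+, 26.4 and 18.4 in dKO PD1+Tim3- and 34.8 and 61.7 in dKO PD1+Tim3+, with an interaction of 1.91 ± 0.34. Ubl5, a ubiquitin-like protein, had 1.55 ± 0.30, Pcbd2, a pterin dehydratase, 1.64 ± 0.28, and Lcn4, a lipocalin at 5.101 to 10.7 CPM, 1.84 ± 0.31. Lamtor2, a subunit of the lysosomal Ragulator complex, had 1.00 ± 0.18, Nop10, a protein of H/ACA ribonucleoproteins, 1.05 ± 0.21, and Snrpd1, a core spliceosome protein, 0.89 ± 0.17. Pcbd2 and Ubl5 share exon sequence with a gene on the other strand, and the labels do not say whether counting used the strand.

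Among negative interactions, Ccr7, the receptor for lymph-node chemokines, stood at 134 and 141 CPM in WT PD1+Tim3-, 124 and 119.8 in WT PD1+Tim3+, 93.7 and 85.6 in dKO PD1+Tim3- and 48.8 and 44.3 in dKO PD1+Tim3+. Its population difference was -0.17 in WT and -0.95 in dKO, which gave an interaction of -0.78 ± 0.15. Within PD1+Tim3+ cells the dKO minus WT difference was -1.39 ± 0.11 for Ccr7 (adjusted p = 2.85e-04, edgeR). In PD1+Tim3- cells that difference was -0.61 ± 0.11 (adjusted p = 0.109, edgeR). The interaction itself had an adjusted p of 0.200 (edgeR).

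Itm2a, a membrane protein of activated T cells, stood at 206 and 208 CPM in WT PD1+Tim3-, 128 and 139 in WT PD1+Tim3+, 200.3 and 231 in dKO PD1+Tim3- and 76.1 and 80.2 in dKO PD1+Tim3+. The PD1+Tim3- libraries overlapped between genotypes, and the PD1+Tim3+ libraries did not. Its interaction was -0.83 ± 0.16. Nsg2, a protein of the endosomal pathway best known from neurons, stood at 65.97 and 65.1 CPM in WT PD1+Tim3-, 29.6 and 30.3 in WT PD1+Tim3+, 54.3 and 65.1 in dKO PD1+Tim3- and 14.3 and 16.4 in dKO PD1+Tim3+, with an interaction of -0.80 ± 0.18. Art2b, a surface ADP-ribosyltransferase of T cells, had an interaction of -1.29 ± 0.29 at 3.69 to 17.01 CPM. H2-Ob, a chain of the class II chaperone H2-O, stood at 7.96 and 11.2 CPM in WT PD1+Tim3- and 4.25 and 3.71 in WT PD1+Tim3+. In dKO it stood at 10.3 and 8.92 CPM in PD1+Tim3- and 0.745 and 0.924 in PD1+Tim3+. H2-Ob was lower in PD1+Tim3+ cells in both genotypes (adjusted p = 0.00688 in WT and 4.24e-04 in dKO, edgeR). Its interaction was -2.27 ± 0.49 (adjusted p = 0.200, edgeR).

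Slc7a11, the cystine importer that feeds glutathione synthesis, stood at 47.2 and 43.7 CPM in WT PD1+Tim3-, 54.8 and 40.3 in WT PD1+Tim3+, 51.8 and 53.5 in dKO PD1+Tim3- and 19.5 and 26.97 in dKO PD1+Tim3+. The dKO PD1+Tim3+ libraries were below the other 6, and the interaction was -1.21 ± 0.25. Efcab1, an EF-hand protein, had the same form at 25.5 and 20.1 CPM in WT PD1+Tim3-, 22.4 and 18.5 in WT PD1+Tim3+, 24.8 and 27.8 in dKO PD1+Tim3- and 8.94 and 10.7 in dKO PD1+Tim3+. Cxcl10, the chemokine that recruits CXCR3+ cells and is induced by interferons, stood at 33.4 and 30.9 CPM in WT PD1+Tim3-, 80.4 and 79.2 in WT PD1+Tim3+, 78.9 and 75.6 in dKO PD1+Tim3- and 116 and 83.3 in dKO PD1+Tim3+. WT PD1+Tim3- libraries were the lowest, and the population difference was 1.31 ± 0.15 in WT (adjusted p = 5.92e-04, edgeR) and 0.36 ± 0.15 in dKO (adjusted p = 0.159, edgeR). Its interaction was -0.94 ± 0.21 (adjusted p = 0.202, edgeR). Cxcl10 shares exon sequence with Art3 on the other strand, as Ankzf1 does with 2 genes.

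In further genes the genotypes exchanged order between the populations. Ppm1d, a phosphatase induced by p53 that ends the DNA damage signal, stood at 13.8 and 13.7 CPM in WT PD1+Tim3-, 20.2 and 20.7 in WT PD1+Tim3+, 21.2 and 20.5 in dKO PD1+Tim3- and 16.9 and 17.00 in dKO PD1+Tim3+. dKO libraries were above WT in PD1+Tim3- cells and below it in PD1+Tim3+ cells, and the interaction was -0.88 ± 0.20. Tysnd1, a peroxisomal protease, had -1.39 ± 0.30 and Ankzf1, a factor of ribosome quality control, -1.179 ± 0.27, with the same exchange.

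**Figure D2:**
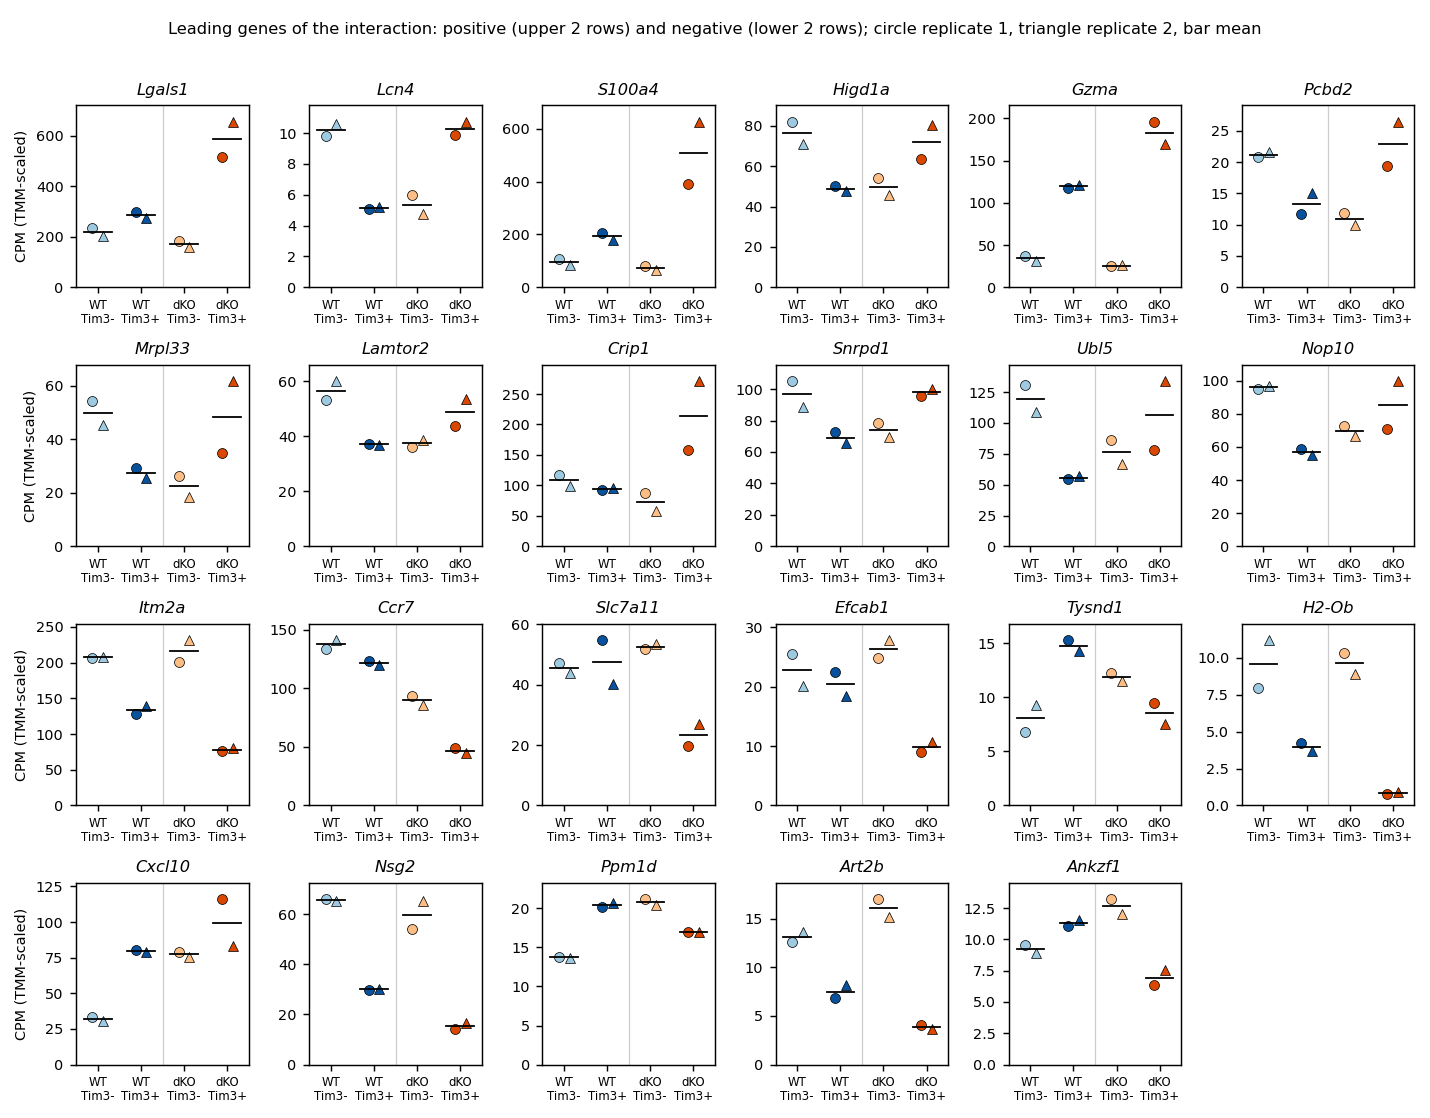
Each panel gives the level of 1 gene in all 8 libraries, as CPM on a linear axis that starts at 0. Circles are replicate 1, triangles replicate 2 and bars group means. The upper 2 rows hold the 12 positive genes, in 9 of which WT means are lower and dKO means higher in PD1+Tim3+ cells. In the lower 2 rows, which hold 11 of the 12 negative genes, the dKO PD1+Tim3+ libraries are the lowest group in 8.

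Promoter windows are shown for 4 of the 10 leading genes whose windows hold a motif that was searched. They were chosen after their values were seen, as genes described above whose windows are examples of the motifs found. A window runs from 250 bases before to 50 bases after a gene's start, from RefSeq on GRCm38.p6, and 10 positive and 9 negative leading genes had one. Capitals mark motif matches on either strand, in the gene's own 5′ to 3′ direction. S100a4 lies at chr3:90603520-90603819 (plus strand) and its capitals are AGGTCA, the core shared by nuclear receptor monomer sites. Gzma lies at chr13:113100932-113101231 (minus strand) and Cxcl10 at chr5:92348840-92349139 (minus strand), both with an interferon-stimulated response element, and Cxcl10 also with the AP-1 site TGANTCA. Slc7a11 lies at chr3:50443564-50443863 (minus strand), with the reverse complement of the FOXO site GTAAACA.
S100a4: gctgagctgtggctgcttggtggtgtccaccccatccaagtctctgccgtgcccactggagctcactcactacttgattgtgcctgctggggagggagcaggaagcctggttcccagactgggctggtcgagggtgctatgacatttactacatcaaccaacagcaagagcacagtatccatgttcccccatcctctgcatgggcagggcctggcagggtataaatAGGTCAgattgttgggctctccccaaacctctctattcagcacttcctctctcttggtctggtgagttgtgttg
Gzma: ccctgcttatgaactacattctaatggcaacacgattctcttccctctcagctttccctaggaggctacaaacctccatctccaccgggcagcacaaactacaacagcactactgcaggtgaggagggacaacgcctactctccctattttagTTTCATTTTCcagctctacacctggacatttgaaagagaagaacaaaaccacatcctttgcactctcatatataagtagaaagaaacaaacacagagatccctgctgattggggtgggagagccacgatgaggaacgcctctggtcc
Cxcl10: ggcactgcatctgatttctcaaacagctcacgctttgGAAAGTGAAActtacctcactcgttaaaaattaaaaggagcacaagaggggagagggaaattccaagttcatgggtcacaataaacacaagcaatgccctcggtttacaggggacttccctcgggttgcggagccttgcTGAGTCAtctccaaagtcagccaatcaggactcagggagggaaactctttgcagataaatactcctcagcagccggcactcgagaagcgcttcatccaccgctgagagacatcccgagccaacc
Slc7a11: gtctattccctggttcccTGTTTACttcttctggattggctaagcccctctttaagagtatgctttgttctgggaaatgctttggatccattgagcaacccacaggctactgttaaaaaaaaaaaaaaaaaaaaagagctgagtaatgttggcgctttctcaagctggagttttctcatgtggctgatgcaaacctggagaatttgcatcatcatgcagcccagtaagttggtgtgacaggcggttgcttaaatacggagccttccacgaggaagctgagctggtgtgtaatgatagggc
The full NR4A site AAAGGTCA, which contains the AGGTCA core, was in 0 of 13 positive and 0 of 11 negative windows, and in 1.51% of all 32851 windows. AGGTCA was in 3 of the 13 positive windows, in S100a4, Higd1a and Ubl5, in 0 of the 11 negative ones and in 16.3% of all. TGANTCA was in 1 positive window, of Mrpl33, and in 4 negative ones, those of Cxcl10 and Art2b and 2 overlapping windows of Tysnd1 that hold the same site, against 7.81% of all windows and 5.15% of those of tested genes. The interferon-stimulated response element was in 1 positive and 2 negative windows against 3.44% of all, and GTAAACA in 1 negative window against 3.65%. The TCF/LEF site CTTTGAT was in none of the windows and in 3.73% of all. A match is a run of letters and was not tested as a binding site.

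Transcript length moved with the interaction. Among tested genes with a known length, 8.45% had a transcript under 1000 bases, but 40.2% of the positive genes with an unadjusted p under 0.05 did (291 of 723), and 1.53% of the negative ones (8 of 523). The median interaction was 0.77 for transcripts above 300 and up to 500 bases, 0.61 up to 700 bases, 0.19 up to 1000 bases and -0.10 for those above 1500 and up to 2000 bases. Short transcripts took 18.9 and 19.3% of counts in WT PD1+Tim3-, 15.5 and 15.2% in WT PD1+Tim3+, 18.1 and 16.7% in dKO PD1+Tim3- and 16.6 and 18.4% in dKO PD1+Tim3+. The 2 WT populations were separate in that share and the 2 dKO populations overlapped. As an interaction the share gave 3.82 percentage points. Its 2-sided exact permutation p was 0.0556, the smallest that the 36 arrangements allow, and 0.111 after adjustment over 4 such shares. The arrangements exchanged genotype labels within each population. This p and the others here therefore assume no genotype difference in either population, and do not test the interaction alone. Ribosomal RNA, counted as Rn45s and Rn18s, gave 1.69 percentage points with the same exact permutation p of 0.0556, ribosomal protein genes 2.29 (exact permutation p = 0.111) and mitochondrially encoded genes -0.027 (exact permutation p = 1).

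In addition, 2 fits took length out. As an offset per library, the first subtracted a smooth curve on transcript length of each gene's level minus its mean over the libraries. The other used a curve on coding length, added after the data were seen because some annotated transcripts are long for a short protein. Neither called a gene. With transcript-length offsets 5.46% of 12207 genes were positive and 3.92% negative at an unadjusted p under 0.05, and with coding-length offsets 5.46% and 4.4% of 11329. The same sign and an unadjusted p under 0.05 in all 3 fits were found for 439 positive and 332 negative genes of these 11329. The offsets overshot in the shortest class, where 51 genes of up to 300 bases had a median of 0.15 without and -0.74 with transcript-length offsets.

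Leading genes differed in how far their values depended on length. Lgals1 gave 1.095 with transcript-length and 1.15 with coding-length offsets, and Gzma 0.84 and 1.11. S100a4 gave 1.179 and 1.35, and Crip1 1.15 and 1.11. Mrpl33 gave 1.304 and 1.198, Lamtor2 0.59 and 0.72, and Snrpd1 0.65 and 0.58. Higd1a gave 1.27 and 0.70, and Ubl5 1.66 and 0.88. Pcbd2 gave 1.11 and 1.24. Nop10, with a coding part of 192 bases in an annotated transcript of 1109, gave 0.99 and 0.31. Among the negative genes, Ccr7 gave -0.67 and -0.69, and Itm2a -0.73 and -0.77.

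**Figure D3:**
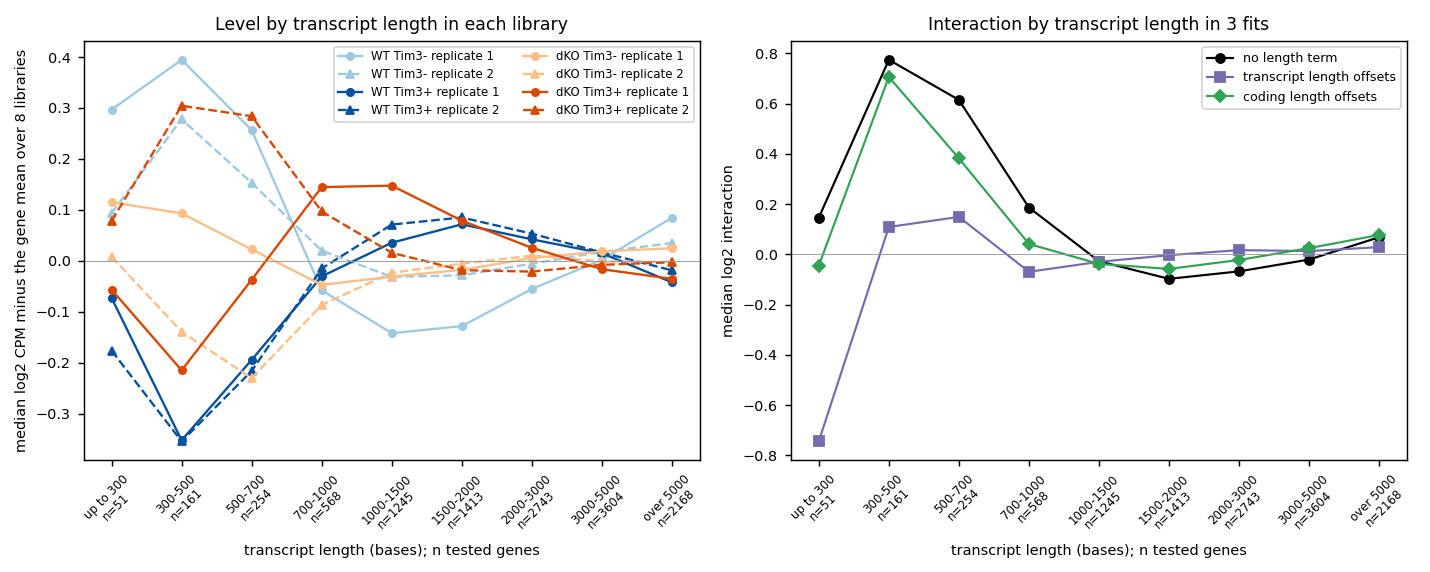
The left panel gives, for 9 classes of transcript length, the median over genes of log2 CPM minus the gene's mean over 8 libraries, with 1 line per library. The WT PD1+Tim3- lines and dKO PD1+Tim3+ replicate 2 are high at 300 to 500 bases, and both WT PD1+Tim3+ lines are low. The right panel gives the median log2 interaction of the same classes in the 3 fits, which differ most below 1000 bases.

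Most glycolysis genes had a negative interaction. Of 15 tested enzymes and transporters, 12 were negative, 7 of them at an unadjusted p under 0.05 against 4.22% of all genes, and 0 were positive at that level. All had transcripts of 1000 bases or more. The list's median was -0.38, -0.29 with transcript-length and -0.34 with coding-length offsets, beside 0.0038 for all genes. The same 7 genes were negative at an unadjusted p under 0.05 in all 3 fits, beside 2.93% of genes with both lengths. With each library left out in turn the median ran from -0.49 to -0.24. None of the 7 passed after adjustment.

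Pkm, the last enzyme of glycolysis, stood at 558 and 675 CPM in WT PD1+Tim3-, 799.5 and 812 in WT PD1+Tim3+, 686 and 738 in dKO PD1+Tim3- and 624 and 602 in dKO PD1+Tim3+. WT PD1+Tim3+ libraries were the highest and WT PD1+Tim3- replicate 1 the lowest, and the interaction was -0.60 ± 0.18 (adjusted p = 0.282, edgeR). Pfkl, a phosphofructokinase of the committed step, stood at 23.3 and 27.6 CPM in WT PD1+Tim3-, 35.9 and 38.8 in WT PD1+Tim3+, 30.04 and 30.4 in dKO PD1+Tim3- and 30.3 and 26.97 in dKO PD1+Tim3+, with an interaction of -0.65 ± 0.19 (adjusted p = 0.277, edgeR). Slc2a1, the glucose transporter GLUT1, stood at 83.3 and 101 CPM in WT PD1+Tim3-, 140.3 and 119 in WT PD1+Tim3+, 109.7 and 126 in dKO PD1+Tim3- and 112 and 105 in dKO PD1+Tim3+. In both genes the WT populations were separate and the dKO populations overlapped. Tpi1, the triose phosphate isomerase, gave -0.54 ± 0.17. The list's median population difference was 0.42 in WT and 0.19 in dKO. Hk1, Hk2 and Eno1, with interactions of 0.39, 0.27 and 0.16, were the positive members.

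Early genes of T cell receptor signalling went the same way by less. Of 31 tested, 23 were negative, 6 at an unadjusted p under 0.05 against 4.22% of all genes, and 0 positive at that level. The median was -0.19, and -0.16 with either kind of offset. Ier3, a survival gene of the early response, stood at 23.9 and 27.6 CPM in WT PD1+Tim3-, 35.9 and 32.99 in WT PD1+Tim3+, 48.1 and 55.6 in dKO PD1+Tim3- and 50.8 and 34.5 in dKO PD1+Tim3+. WT PD1+Tim3- was lowest and the dKO populations overlapped, with an interaction of -0.68 ± 0.25. It was -0.42 without dKO PD1+Tim3+ replicate 2. Jun, a subunit of AP-1, gave -0.37 ± 0.15, Egr2, a factor induced with the NR4A genes, -0.42 ± 0.18, and Ier5, a heat-shock factor regulator, -0.39 ± 0.16. With transcript-length offsets 5 members and with coding-length offsets 2 were negative at that level, beside 3.92% and 4.4% of all genes in those fits. The median population difference was 0.34 in WT and 0.076 in dKO.

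**Figure D4:**
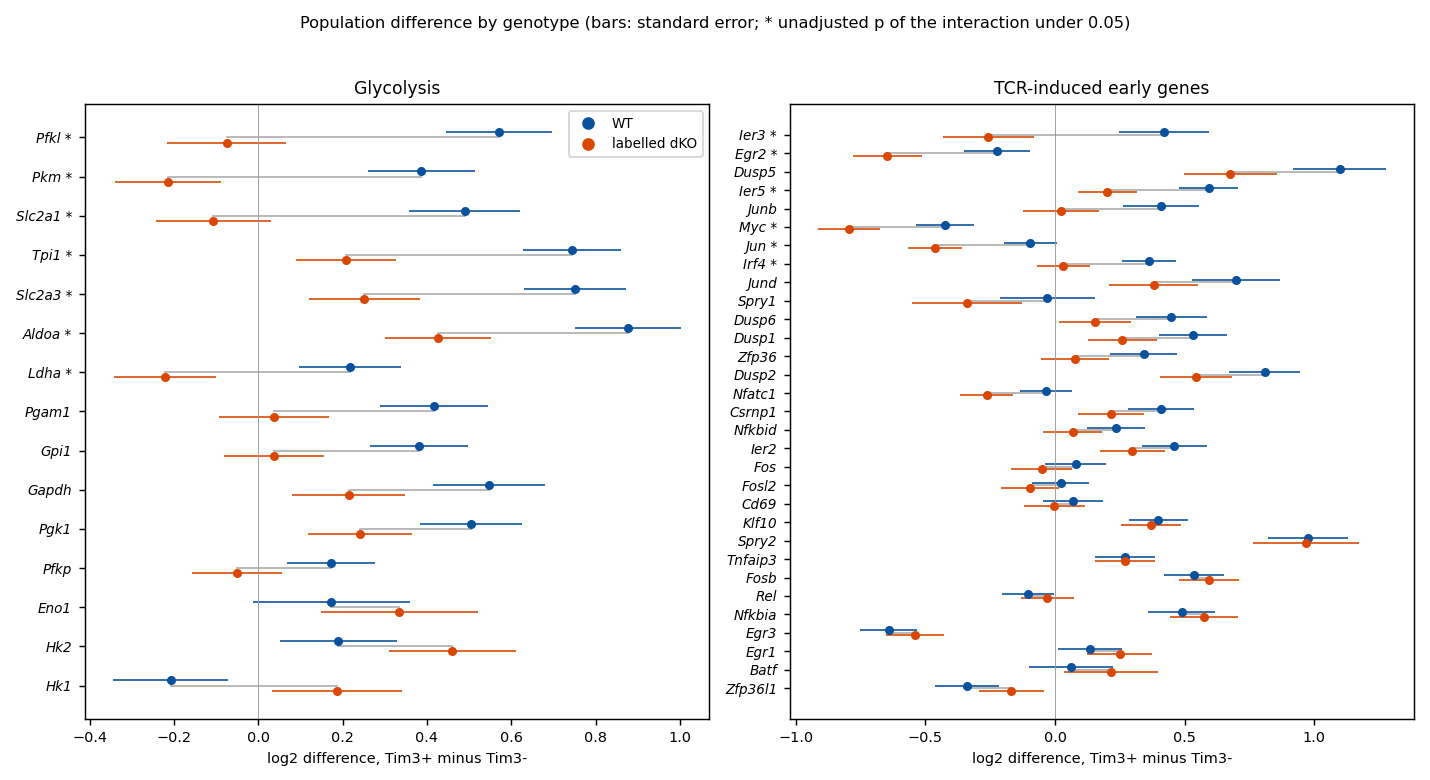
Each row is a tested member of 1 of 2 lists, with the log2 difference between PD1+Tim3+ and PD1+Tim3- cells in WT (blue) and in libraries labelled dKO (orange), and bars of 1 standard error. Asterisks mark an unadjusted interaction p under 0.05. The dKO point lies left of the WT point in 12 of 15 glycolysis genes and 23 of 31 early genes.

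Stem-like and memory genes went both ways. Of 21 tested, 2 were positive and 4 negative at an unadjusted p under 0.05, beside 5.87% and 4.22% of all genes, with a median of -0.092. Beside Ccr7, Myb, a factor needed for the stem-like pool, stood at 222 and 209.8 CPM in WT PD1+Tim3-, 86.5 and 87.4 in WT PD1+Tim3+, 146 and 143 in dKO PD1+Tim3- and 43.2 and 46.6 in dKO PD1+Tim3+, separate in all 4 groups, with an interaction of -0.37 ± 0.15. Id3, an inhibitor of E proteins in the same pool, stood at 23.9 and 23.6 CPM in WT PD1+Tim3-, 10.9 and 12.1 in WT PD1+Tim3+, 49.9 and 45.7 in dKO PD1+Tim3- and 16.6 and 17.9 in dKO PD1+Tim3+. Its interaction was -0.46 ± 0.19, with dKO above WT in both populations. Il7r, the receptor chain for the survival cytokine IL-7, was of the opposite sign at 172 and 149 CPM in WT PD1+Tim3-, 124 and 107 in WT PD1+Tim3+, 199 and 198 in dKO PD1+Tim3- and 193 and 207 in dKO PD1+Tim3+. Here WT levels were lower with Tim3 and dKO levels were alike, which gave 0.49 ± 0.17.

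Inhibitory receptors and other terminal exhaustion genes had a median of -0.021 over 21 members, with 0 positive and 1 negative at an unadjusted p under 0.05. That member was Lag3, an inhibitory receptor, at 204 and 228 CPM in WT PD1+Tim3-, 294 and 269.8 in WT PD1+Tim3+, 221 and 230.4 in dKO PD1+Tim3- and 229.7 and 205 in dKO PD1+Tim3+ and an interaction of -0.43 ± 0.17. Cd160, another inhibitory receptor, gave -0.34 ± 0.16. Effector and cytotoxic genes had a median of 0.16 over 20 members, 3 positive and 1 negative at that level beside 5.87% and 4.22% of all genes. With transcript-length offsets 2 of each sign reached that level, beside 5.46% and 3.92% of all genes. Beside Gzma, Zeb2, a factor of terminal effector cells, stood at 31.99 and 22.2 CPM in WT PD1+Tim3-, 41.8 and 39.8 in WT PD1+Tim3+, 14.3 and 12.1 in dKO PD1+Tim3- and 32.4 and 29.4 in dKO PD1+Tim3+. Its dKO minus WT difference was -1.01 in PD1+Tim3- and -0.40 in PD1+Tim3+ cells, an interaction of 0.62 ± 0.26. Without WT PD1+Tim3- replicate 1 it was 0.30. Tbx21, which encodes T-bet, stood at 72.5 and 74.01 CPM in WT PD1+Tim3-, 117 and 119 in WT PD1+Tim3+, 105 and 104 in dKO PD1+Tim3- and 127 and 116 in dKO PD1+Tim3+, WT PD1+Tim3- being low, and gave -0.47 ± 0.14. The effector median turned to -0.054 without replicate 1 of dKO PD1+Tim3+.

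Of 14 trafficking receptors, 1 was positive and 2 were negative at an unadjusted p under 0.05, beside 5.87% and 4.22% of all genes. Cxcr4, a retention receptor for CXCL12, stood at 115 and 141 CPM in WT PD1+Tim3-, 156 and 149.7 in WT PD1+Tim3+, 96.6 and 92.4 in dKO PD1+Tim3- and 83.2 and 74.1 in dKO PD1+Tim3+, with an interaction of -0.53 ± 0.17. Its highest libraries were WT PD1+Tim3+ and its lowest dKO PD1+Tim3+. Itgal, the integrin chain of LFA-1, gave -0.36 ± 0.16, and Ccr2, an inflammatory chemokine receptor, 0.47 ± 0.17. Among 7 chemokine genes, 5 of them with transcripts under 1000 bases, 3 were positive and 1 negative at that level, beside the same shares. With either kind of offset 1 was positive and 2 were negative, beside 5.46% of all genes positive in both fits. The negative shares of all genes were 3.92% with transcript-length and 4.4% with coding-length offsets. Ccl1, a chemokine of activated T cells, stood at 2.42 and 1.04 CPM in WT PD1+Tim3-, 2.89 and 4.28 in WT PD1+Tim3+, 1.45 and 1.57 in dKO PD1+Tim3- and 10.2 and 21.8 in dKO PD1+Tim3+, with 2.38 ± 0.84, or 1.56 without WT PD1+Tim3- replicate 1. The chemokine median was 0.22 without and -0.19 with coding-length offsets. Tissue residency genes had a median of 0.094 over 9 members, and none had an unadjusted p under 0.05.

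Type I interferon genes had low p in both directions. Their median was -0.23 over 26 genes, with 3 positive and 4 negative at an unadjusted p under 0.05 beside 5.87% and 4.22% of all genes. With either kind of offset these counts were 2 and 3, beside 5.46% of all genes positive and 3.92% or 4.4% negative. Ifitm1, a membrane restriction factor, stood at 4.41 and 5.18 CPM in WT PD1+Tim3-, 24.7 and 21.6 in WT PD1+Tim3+, 8.32 and 8.92 in dKO PD1+Tim3- and 71.3 and 83.3 in dKO PD1+Tim3+, with 0.91 ± 0.27. Ifitm2 stood at 1.99 and 1.45 CPM in WT PD1+Tim3-, 5.61 and 6.07 in WT PD1+Tim3+, 2.17 and 2.62 in dKO PD1+Tim3- and 23.3 and 22.5 in dKO PD1+Tim3+, with 1.58 ± 0.43, and dKO PD1+Tim3+ was the highest group for both. These 2 genes are near copies, and how reads were split between them is not stated in the labels. Isg15, a ubiquitin-like modifier, gave 0.62 ± 0.19, whereas Oas3, an RNA-sensing synthetase, gave -0.50 ± 0.18. Ifitm1, Ifitm2 and Isg15 have transcripts under 1000 bases, and with transcript-length offsets they gave 0.71, 1.179 and 0.30.

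Most mitosis genes had a positive interaction. Of 23 tested, 18 were positive, 4 at an unadjusted p under 0.05 against 5.87% of all genes, and the median was 0.37, or 0.27 with transcript-length offsets. With either kind of offset 2 of 23 were positive at that level, against 5.46% of all genes. The median ran from 0.21 without WT PD1+Tim3- replicate 2 to 0.52 without WT PD1+Tim3+ replicate 2. Cenpf, a kinetochore protein, stood at 6.398 and 7.46 CPM in WT PD1+Tim3-, 6.29 and 8.36 in WT PD1+Tim3+, 3.08 and 3.15 in dKO PD1+Tim3- and 8.94 and 12.2 in dKO PD1+Tim3+. The dKO PD1+Tim3- libraries were below all 4 WT libraries and dKO PD1+Tim3+ above them, with an interaction of 1.62 ± 0.41. Cenpe, a kinetochore motor, gave 1.21 ± 0.33 and Mki67, the proliferation marker Ki-67, 0.49 ± 0.20. The list's median population difference was 1.19 in WT and 1.51 in dKO. The 22 S phase genes had a median of -0.00092, with 0 positive and 1 negative at that level, namely Mcm2, a helicase subunit, at -0.55 ± 0.16. Whether the 2 lists differ was not tested.

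Nuclear genes of the respiratory chain and ribosomal protein genes had the highest medians among lists of 10 or more tested genes, and most are short. Of 34 respiratory genes 21 were positive at an unadjusted p under 0.05 and 0 negative, beside 5.87% and 4.22% of all genes. Of the 34, 21 had transcripts under 1000 bases, and the median was 1.01. Ndufa4, a subunit of cytochrome oxidase, stood at 184 and 159 CPM in WT PD1+Tim3-, 99.1 and 96.3 in WT PD1+Tim3+, 124 and 87.7 in dKO PD1+Tim3- and 124 and 191 in dKO PD1+Tim3+, WT PD1+Tim3- replicate 1 and dKO PD1+Tim3+ replicate 2 being the highest. Its interaction was 1.36 ± 0.28, and 0.79 with coding-length offsets. Cox5b and Cox7a2, both of the same complex, gave 1.28 ± 0.30 (0.82 without dKO PD1+Tim3+ replicate 2) and 1.24 ± 0.29. The list's median was 0.66 with transcript-length and 0.66 with coding-length offsets. In each of these fits 18 genes were positive at that level, against 5.46% of all genes. With transcript-length offsets 0 were negative and with coding-length offsets 1, against 3.92% and 4.4% of all genes. The median came to -0.23 in the fit that left out transcripts under 1000 bases, which keeps only the longer members. Without dKO PD1+Tim3+ replicate 2 it came to 0.66.

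Ribosomal protein genes, 80 in number with 52 under 1000 bases, had 54 positive and 0 negative at an unadjusted p under 0.05, beside 5.87% and 4.22% of all genes. Their median was 0.83, and 0.42 with transcript-length and 0.56 with coding-length offsets, under which 38 were positive at that level in each, against 5.46% of all genes. Without dKO PD1+Tim3+ replicate 2 the median was 0.48. Rps26, of the small subunit, stood at 1126 and 1042 CPM in WT PD1+Tim3-, 447 and 484 in WT PD1+Tim3+, 801 and 571 in dKO PD1+Tim3- and 561 and 1064 in dKO PD1+Tim3+. For Rps26, dKO PD1+Tim3+ replicate 2 was near the WT PD1+Tim3- libraries and replicate 1 was not, and the interaction of 1.46 ± 0.35 came to 0.93 without replicate 2. Mitochondrially encoded genes of the same complexes, 13 in number, had a median of 0.12, and -0.072 with transcript-length offsets. MT-Nd3, a subunit of complex I, stood at 266 and 177 CPM in WT PD1+Tim3-, 81.6 and 74.4 in WT PD1+Tim3+, 146 and 101 in dKO PD1+Tim3- and 90.3 and 229.8 in dKO PD1+Tim3+, with replicates of dKO PD1+Tim3+ far apart.

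The remaining lists had medians from -0.19 to -0.013. Translation factors gave -0.14 over 24 genes (2 positive and 1 negative at an unadjusted p under 0.05), the proteasome -0.017 over 27 (2 positive), cholesterol synthesis -0.013 over 17 (none) and apoptosis regulators -0.10 over 15 (none). Heat shock genes gave -0.063 over 15, with 2 negative. These counts stand beside 5.87% and 4.22% of all genes. T cell identity genes gave -0.19 over 13, with 2 negative, the receptor-proximal kinases Zap70 at -0.49 ± 0.20 and Lck at -0.39 ± 0.17. Both kinases read highest in WT PD1+Tim3+ cells.

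**Figure D5:**
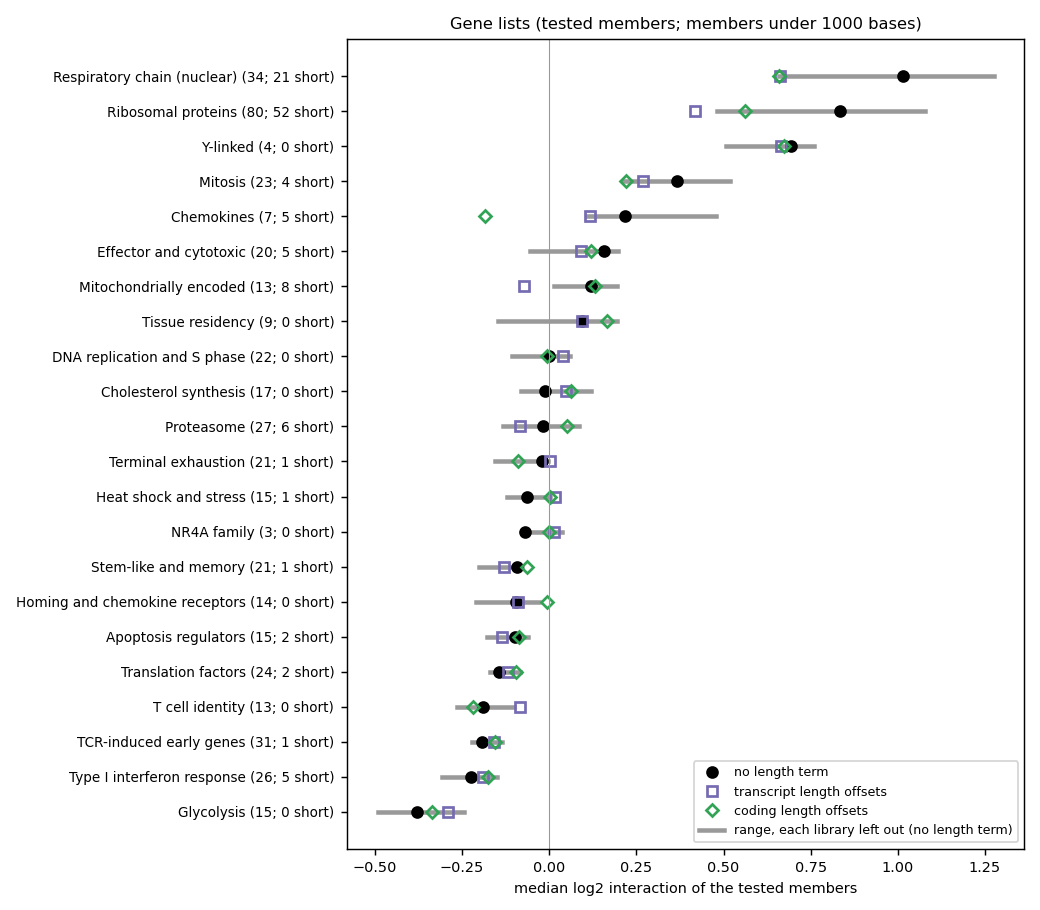
Points give the median log2 interaction of the tested members of each list without a length term (black circles), with transcript-length offsets (squares) and with coding-length offsets (diamonds). Grey bars span the medians with each library left out in turn. Glycolysis lies lowest at -0.38. The respiratory chain and ribosomal proteins, where most members are short, lie highest and are lower with the offsets. Chemokines change sign with coding-length offsets.

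The 4 Y-linked genes had positive interactions of 0.46 to 0.78. All 4 had an unadjusted p under 0.05 in all 3 fits, beside 3.88% of genes with both lengths that were positive at that level. Ddx3y, an RNA helicase, stood at 31.4 and 24.9 CPM in WT PD1+Tim3-, 19.7 and 18.9 in WT PD1+Tim3+, 49.8 and 48.8 in dKO PD1+Tim3- and 56.8 and 58.01 in dKO PD1+Tim3+. dKO libraries were above WT in both populations, and WT but not dKO was lower with Tim3. Eif2s3y, a translation initiation subunit, stood at 24.5 and 23.01 CPM in WT PD1+Tim3-, 19.9 and 20.3 in WT PD1+Tim3+, 42.5 and 40.4 in dKO PD1+Tim3- and 49.9 and 47.1 in dKO PD1+Tim3+. Each library held Y-linked counts. These genes share reads with X-linked relatives where counting allows it, and the labels give neither sex nor number of donors per library.

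Markers of other cells that the tumour could hold were low and partly moved with the groups. As summed CPM on unscaled totals, 5 erythroid genes, among them the globins, ran from 3.54 to 7.03 in PD1+Tim3- libraries. They stood at 36.1 and 6.48 CPM for WT PD1+Tim3+, against 111 and 32.1 for dKO PD1+Tim3+. Their 4 tested members had a median interaction of 2.93, and 1.57 without that group's replicate 1. The highest sum was replicate 1 of dKO PD1+Tim3+, the library without which calls appeared. Dendritic cell markers, 9 in number, ran from 32.9 to 40.9 in PD1+Tim3- and from 68.3 to 89.3 in PD1+Tim3+ libraries. NK cell markers stood at 22.95 and 19.7 in WT PD1+Tim3+, and ran from 9.96 to 13.2 elsewhere. CD4 and regulatory T cell markers stood at 15.8 and 13.01 in dKO PD1+Tim3+ and ran from 4.22 to 7.83 elsewhere. Of these, Cd40lg, the CD40 ligand, gave an interaction of 1.31 ± 0.34, and Foxp3, the factor of regulatory T cells, at 0.207 to 2.55 CPM, one of -2.31 ± 1.02. Melanoma markers ran from 20.6 to 24.6, macrophage markers from 11.8 to 26.5, fibroblast and endothelial markers from 21.04 to 37.5, neutrophil markers from 2.06 to 4.34 and B cell markers, with Ms4a1 at 0 in every library, from 2.57 to 5.88. Their part in the interactions was not tested, and in bulk libraries fewer cells of a type and less RNA per cell cannot be told apart.

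The genes that separate the populations most were set beside the interaction. Genes were sorted by the population difference averaged over genotypes. In a balanced design this estimate is uncorrelated with the interaction only if all groups vary alike. Library depths differed and both estimates use the same 8 libraries, so the sort is not independent of the interaction. Of the 475 genes called lower in PD1+Tim3+ cells by at least 1 on the log2 scale, 81.5% had a positive interaction, against 50.4% of all tested genes, with a median of 0.21, and the median population difference was -1.34 in WT and -1.14 in dKO. Few had a low p, with 6 positive and 13 negative at an unadjusted p under 0.05, beside 5.87% and 4.22% of all genes. Of the 360 called higher by as much, 61.1% had a positive interaction, with a median of 0.18, and the difference was 1.34 in WT and 1.54 in dKO. Here 35 were positive and 2 negative at that level, beside the same shares of all genes. Among the 313 of them with transcripts of 1000 bases or more, 18 were positive and 2 negative. Without the limit on size, 66.2% of the 1386 genes called lower were positive, with a median of 0.15, but 48.8% of the 1592 called higher, with a median of -0.016. For the larger differences the medians with transcript-length offsets were 0.25 and 0.20. Genes are not independent replicates, and 0 of either set passed the test of the interaction.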

How the data were processed

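RNA from sorted tumour CD8 T cells was sequenced in 8 libraries, and the authors deposited raw counts for each gene symbol in 1 table. Per the submitters' processing notes, cutadapt 1.18, Bowtie2 2.2.5 and build mm10 were used, with no role or order given. The labels do not name the counter, annotation or strand setting. The unnamed final line, which holds column totals, was left out. Groups were taken from the labels, and columns that name PD1 alone were matched to PD1+Tim3-.

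The 8 libraries entered 1 fit of 4 group means in edgeR 4.0.16 (R 4.3.3), with TMM scaling, the default low-count filter and the quasi-likelihood F test on 4 residual degrees of freedom. Standard errors are the log2 difference over the square root of F, and adjusted p-values are Benjamini-Hochberg over all tested genes, called under 0.05. CPM values use TMM-scaled totals. With 2 libraries per group, p-values assume that all groups vary alike. Lengths are those of GENCODE M21 principal transcripts, with 12207 tested genes matched by symbol, and 11329 with a coding length. Length offsets are lowess curves (span 0.3), per library, of a gene's log2 CPM (prior count 2) minus its mean over the libraries, on log2 length.

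Named genes are the 12 of lowest p in each direction with a named product, the NR4A genes, Tcf7, Tox, Havcr2 and Pdcd1, and up to 4 genes of lowest p per list, less some that are not reported here. Passed over by that rule were Rps15a-ps6 and Gm3873 among positive and 2410017I17Rik and Gm5088 among negative genes. The genes and lists were chosen with earlier results of these data known. Alternatives were DESeq2 1.42.0, limma-voom (limma 3.58.1), other scaling and filters, robust variance, the replicate block, length terms and each library left out. Scripts were tested on simulated data.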

Additional observations from a re-analysis of the deposited data

How the results depend on the processing

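Against 0 genes called for the interaction, DESeq2 called 95, robust variance estimation 4 (among them Lgals1, Higd1a and Gzma) and edgeR without a low-count filter 331. Leaving out a library gave 0 to 323, the highest being without replicate 1 of dKO PD1+Tim3+, with or without length offsets (193 with them). The calls stayed at 0 with limma-voom, upper-quartile scaling, the stricter filter, either length offset, and without short transcripts or ribosomal RNA, where 1003 to 1324 genes had an unadjusted p under 0.05. The averaged population difference called 2978 genes, 1831 with DESeq2 and 1602 to 3391 with a library left out (with or without length offsets), the lowest without dKO PD1+Tim3- replicate 1. The averaged genotype difference called 113 genes, 269 without the filter, 171 with robust variance estimation and 15 to 139 with a library left out, the lowest again without dKO PD1+Tim3- replicate 1.

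The labels do not say whether same-numbered libraries of a genotype came from the same mouse. Their deviations from the group means correlated at -0.017 in WT and -0.045 in dKO across genes. Values near 0 cannot decide it, since library noise could hide a shared mouse. A fit with the replicate block called 0 genes for the interaction (1018 at an unadjusted p under 0.05), 43 for the averaged genotype difference, and 38 for that with length offsets too.

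Interactions near 0 changed sign. With transcript-length, block with transcript-length and coding-length terms, Nr4a1 gave 0.015, 0.0086 and 0.00020, Tcf7 0.017, 0.017 and 0.0059, and Pdcd1 0.12, 0.044 and 0.079. Pdcd1 gave 0.011 with limma-voom, 0.0053 with the stricter filter, 0.018 without short transcripts and 0.0071 without ribosomal RNA, and Nr4a2 gave -0.022 with upper-quartile scaling and -0.0020 without the filter. With a library left out, with or without transcript-length offsets, Nr4a1 ran from -0.22 to 0.15, Nr4a2 from -0.049 to 0.085, Tcf7 from -0.13 to 0.068, Havcr2 from -0.20 to 0.54 and Pdcd1 from -0.35 to 0.39. No leading gene named in the text changed sign in any alternative. Those genes were picked by low p in the same counts, so their constant sign is not independent support. The coding-length fit and leaving out libraries under length offsets were chosen after seeing the data. The lowest depth, 1944999 counts, limits dKO PD1+Tim3- replicate 2.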

Other observations

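Ordering by p with coding-length offsets brought up genes that the main ordering places lower. Transcript-length offsets also raised Reps1, from rank 46 to 10, and Ripor2, from 71 to 13. The genes named here were chosen after their values were seen. Reps1, an endocytic adaptor, stood at 21.8 and 22.2 CPM in WT PD1+Tim3-, 19.04 and 18.5 in WT PD1+Tim3+, 14.5 and 12.6 in dKO PD1+Tim3- and 21.8 and 24.02 in dKO PD1+Tim3+, with the lowest levels in dKO PD1+Tim3-. Its interaction was 0.95 ± 0.21 without and 1.00 with coding-length offsets. Rell1, a member of the RELT receptor family, stood at 10.5 and 11.6 CPM in WT PD1+Tim3-, 10.7 and 10.5 in WT PD1+Tim3+, 6.696 and 6.298 in dKO PD1+Tim3- and 13.96 and 18.1 in dKO PD1+Tim3+, and gave 1.34 ± 0.29 and 1.403. Ripor2, an inhibitor of RhoA, stood at 42.5 and 47.9 CPM in WT PD1+Tim3-, 28.2 and 28.6 in WT PD1+Tim3+, 35.1 and 34.6 in dKO PD1+Tim3- and 34.8 and 38.4 in dKO PD1+Tim3+, and gave 0.73 ± 0.17 and 0.80. In these 3 genes the dKO libraries were below WT in PD1+Tim3- cells and not in PD1+Tim3+ cells. Id3 moved from -0.46 to -0.77 with coding-length offsets, but gave -0.44 with transcript-length offsets. None had an adjusted p under 0.05 in either fit by edgeR.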
